A study of Mus musculus with 51 samples.

Results

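The genes described here are 10 genes of neural fate, *Sox1*, *Sox2*, *Sox3*, *Pax6*, *Pax3*, *Tal2*, *Foxd3*, *Lrrn1*, *Nes* and *Slc35d3*, taken by symbol from each of the 9 deposited expression tables, which list 24538 genes each. All 10 were found in every table. The study differentiated mouse embryonic stem cells (mESCs) towards cardiac mesoderm with Bmp4 at 20 ng/ml, and the RNA-seq part of it holds 18 samples. Wild-type (WT) cells of the mESC line F1G4 were sampled at the stage labelled ES and on days 1, 2 and 3, with 2 samples per stage. *Eomes* KO, *T* KO and *Eomes*/*T* double KO (dKO) cells were each sampled on days 2 and 3, with 1 sample per line and day, and a separate *Smad4* line (129S/SvEvxC57BL/6) was sampled on days 1 and 2 as WT and as KO cells, again with 1 sample each.

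The ES stage stands for cell aggregates at the start of the protocol, after feeder cells had been removed and before Bmp4 was added. All groups from day 1 on received Bmp4, the WT controls included, so KO and WT cells were compared under the same treatment, while comparisons with the ES stage set cells in Bmp4 against cells without it. In the *Eomes* KO and *T* KO lines, paired nicks by CRISPR/Cas9 took out the promoter and first exon, and the dKO line was built on the *Eomes* KO line. The WT cells of the *Smad4* line carry conditional (floxed) *Smad4* alleles, and in the *Smad4* KO cells the floxed first exon had been removed by transient Cre. KO lines were grown from single picked clones, and the study's methods do not state how many clones were sequenced per genotype. A difference between KO and WT can therefore also hold differences between clones. The *Smad4* line was derived separately from F1G4.

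In the epiblast, ectoderm cells take a neural fate by default when BMP and Nodal signals are low, while high BMP and Nodal signals, passed on through Smad4, direct cells through the primitive streak into mesoderm. Sox1, Sox2 and Sox3 form the SoxB1 group of transcription factors, which hold neural progenitors in their undifferentiated state. Sox2 is also a core pluripotency factor of ES cells, whereas Sox1 is among the earliest genes specific to neuroectoderm. Pax6 and Pax3 are paired-domain factors of the neural tube, eye and neural crest, Foxd3 is a forkhead factor of pluripotent cells and neural crest, and Tal2 is a basic helix-loop-helix factor of midbrain neurons. *Nes* encodes nestin, an intermediate filament protein of neural progenitors, *Lrrn1* a leucine-rich repeat membrane protein of the neural tube, and *Slc35d3* a nucleotide sugar transporter family protein. *Sox1*, *Sox2*, *Pax6* and *Tal2* were named by the study from the *Smad4* KO and *Eomes* KO samples analysed here. *Pax6* was also named from the comparison of *Eomes* KO, *T* KO and dKO cells on day 3. The study's discussion lists all of them among neural genes repressed by SMAD signaling, by Eomes and by T. Their direction in the *Smad4* KO, *Eomes* KO, *T* KO and dKO samples is therefore not independent evidence.

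In the RefSeq annotation of GRCm38.p6, *Sox1* lies at chr8:12395519-12399555 (+), *Sox2* at chr3:34649995-34652461 (+), *Sox3* at chrX:60891366-60893430 (−) and *Foxd3* at chr4:99656299-99658671 (+), each with 1 exon. *Pax6* lies at chr2:105668896-105698410 (+) with 8 transcripts of 10 to 13 exons, *Pax3* at chr1:78101267-78197136 (−) with 2 transcripts of 8 and 9 exons, and *Nes* at chr3:87971093-87980451 (+) with 4 exons. *Tal2* lies at chr4:53779701-53788712 (+), *Lrrn1* at chr6:107529726-107570228 (+) and *Slc35d3* at chr10:19847917-19856634 (−), each with 2 exons.

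The 250 bases before the annotated start are shown for *Sox1*, *Sox2*, *Pax6* and *Tal2*, the 4 genes that the study named, with every CG pair in capitals, so that promoters of genes that were higher together in *Smad4* KO cells can be set side by side. Sequences are from RefSeq on GRCm38.p6, 5′ to 3′ on the gene's strand. *Pax6* has 2 annotated starts in the set. The windows are chr8:12395269-12395518 (+) for *Sox1*, chr3:34649745-34649994 (+) for *Sox2*, chr2:105668646-105668895 (+) and chr2:105682213-105682462 (+) for *Pax6*, and chr4:53779451-53779700 (+) for *Tal2*.
Sox1: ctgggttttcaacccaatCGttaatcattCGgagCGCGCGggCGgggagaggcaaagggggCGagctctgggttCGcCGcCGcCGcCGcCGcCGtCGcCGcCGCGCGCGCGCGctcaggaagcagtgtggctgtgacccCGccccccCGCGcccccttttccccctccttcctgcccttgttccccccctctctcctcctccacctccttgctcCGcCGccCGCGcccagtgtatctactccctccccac
Sox2: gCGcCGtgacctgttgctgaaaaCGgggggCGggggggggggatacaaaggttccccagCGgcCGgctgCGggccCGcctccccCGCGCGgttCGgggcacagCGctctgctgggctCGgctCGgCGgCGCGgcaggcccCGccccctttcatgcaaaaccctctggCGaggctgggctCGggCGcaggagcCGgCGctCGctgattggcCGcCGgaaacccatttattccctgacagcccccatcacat
Pax6, upstream start: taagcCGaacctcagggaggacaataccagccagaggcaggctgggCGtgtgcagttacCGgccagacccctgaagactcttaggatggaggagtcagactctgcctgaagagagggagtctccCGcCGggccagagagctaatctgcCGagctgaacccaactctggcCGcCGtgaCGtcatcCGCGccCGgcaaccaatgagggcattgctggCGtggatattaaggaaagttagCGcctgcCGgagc
Pax6, downstream start: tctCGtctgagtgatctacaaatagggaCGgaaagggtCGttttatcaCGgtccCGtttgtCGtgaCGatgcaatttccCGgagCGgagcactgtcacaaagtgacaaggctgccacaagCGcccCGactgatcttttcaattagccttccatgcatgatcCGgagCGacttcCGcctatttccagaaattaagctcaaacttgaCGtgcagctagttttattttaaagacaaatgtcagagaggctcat
Tal2: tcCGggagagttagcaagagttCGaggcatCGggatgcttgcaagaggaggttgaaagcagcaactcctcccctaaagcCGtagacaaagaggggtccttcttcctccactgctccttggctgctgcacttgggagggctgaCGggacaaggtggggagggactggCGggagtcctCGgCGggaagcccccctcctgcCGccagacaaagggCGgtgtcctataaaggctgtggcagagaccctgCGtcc

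The *Sox1* and *Sox2* windows are dense in CG pairs, with 29 and 27, and 93.2% and 91.4% of 32851 mouse promoter windows of the same length hold fewer. The *Pax6* windows hold 15 each and the *Tal2* window 11, against a median of 6 over all windows. Of the 10 genes, 8 had a window in the table (9 windows in all), and *Sox3* and *Pax3* are named only. For motifs, 6 letter strings, none of which holds another, were searched on both strands: AGGTGTGA (T-box), ACAATG (SoxB1), CTTTGA (Tcf/Lef), ATTTGCAT (octamer), CAGACA (Smad CAGA box) and GGCGCC (Smad GC-rich). Of these, CAGACA, present in 17.1% of all windows, lay 49 bases before the start of *Tal2* and, on the other strand, 232 bases before that of *Nes*. GGCGCC, present in 9.59%, lay 154 bases before the start of *Slc35d3*. The other strings, present in 1.12%, 10.7%, 13.8% and 1.60% of all windows in the order given, were in none of the 9 windows.

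Values are FPKM (fragments per kilobase of transcript, scaled for sequencing depth and normalised by the authors), with 1 value per gene and condition. Since the tables hold no replicate values, there is no SD and no test, and differences are given as log2 ratios without a pseudocount. A gene was examined where its FPKM was above 1 in either of the compared conditions, and called past the fold at a log2 ratio above 1 or below −1. Both limits were taken over from the methods of the study. The 10 genes and the gene lists were chosen with earlier results of these data known. Shares over all genes given beside their counts are therefore a scale, and no test of neural genes as a class. FPKM of genes with 1 transcript fell on whole multiples of a single step in the 10 columns that hold KO cells or *Smad4*-line WT cells (93.3% to 94.8% of the values of up to 10 fragments, within 0.1 of a whole number). In the 4 F1G4 WT columns 2 steps were fitted because the labels give 2 samples. The number of samples was therefore not tested there. Figure legends of the study describe KO values as averages over replicates. The labels give a single sample for each KO column, and a single step described its values. The fragments on 12410 such genes came to 8.61 M (mega) in *T* KO cells on day 2, the shallowest column, to 10.3 M to 18.9 M in the other single-sample columns, and to 25.2 M to 32.6 M in the F1G4 WT columns. The 95% intervals are exact intervals of these recovered fragments, Poisson for a level and conditional binomial (Clopper-Pearson) for a ratio. Ratio intervals cover counting error only. Level intervals also span the transcript lengths of *Pax6* and *Pax3* and, in F1G4 WT columns, both steps, and are wider there than counting error. Both kinds count PCR copies as separate molecules, and say nothing of the spread between cultures. *Eomes* FPKM in *Eomes* KO cells was 2.42 on day 2 and 0.276 on day 3 against 9.42 and 20.3 in WT cells, and *T* in *T* KO cells was 6.64 and 3.00 against 44.8 and 323. *Smad4* FPKM was 39.4 on day 1 and 46.8 on day 2 in *Smad4* KO cells against 33.8 and 39.3 in their WT cells. A value over the whole gene does not test the loss of 1 exon. *Id1*, a direct target of BMP signaling, was at 2.14 against 77.1 FPKM on day 1.

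**Figure D1:**
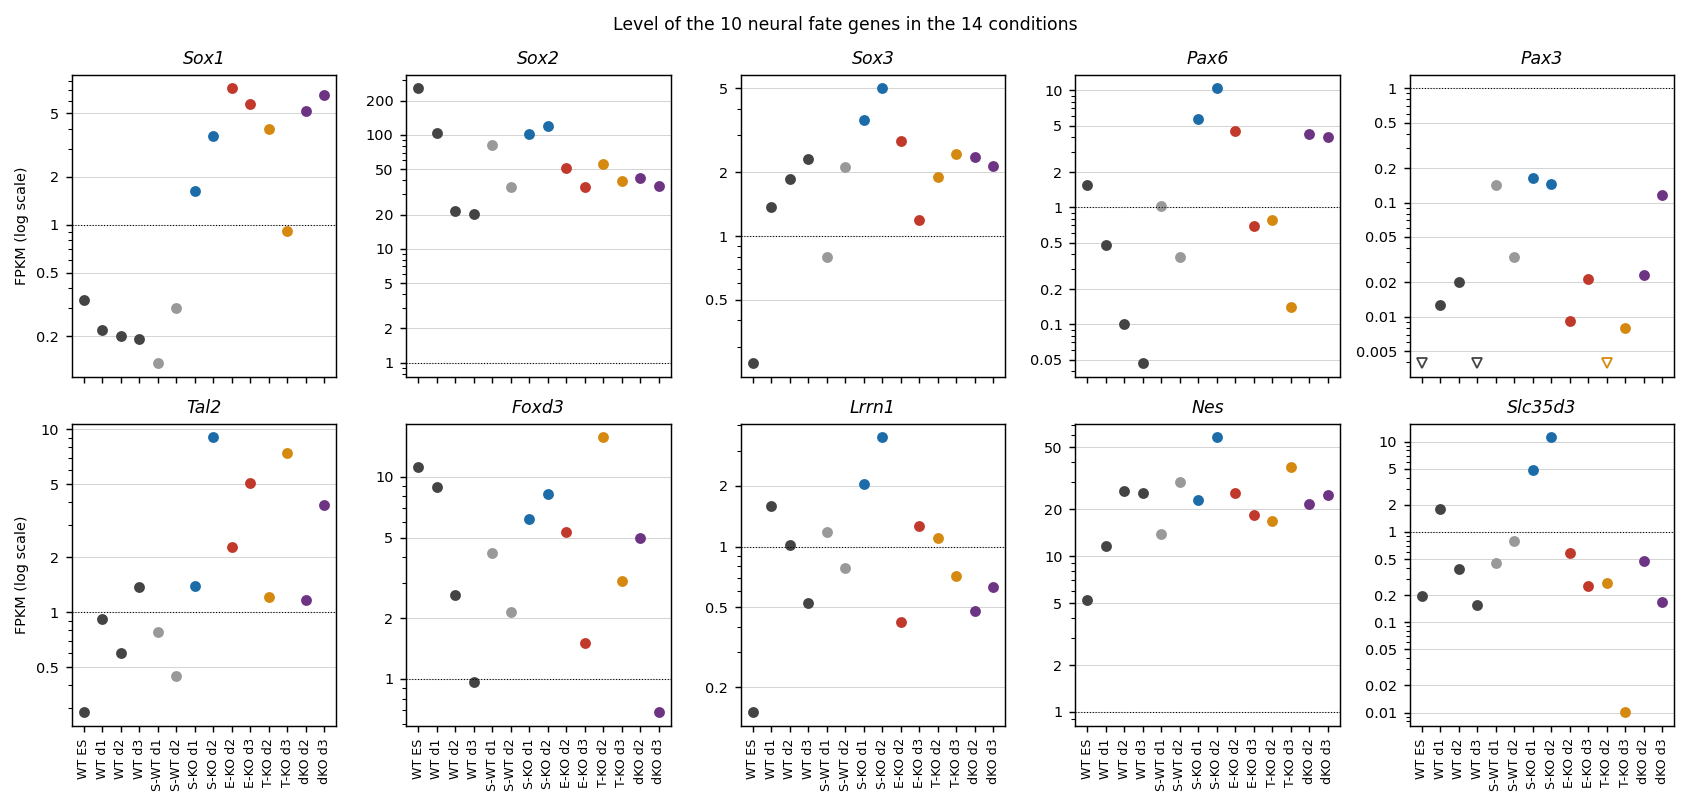
FPKM (log axis) of each of the 10 genes in the 14 conditions, 1 point per condition. WT, F1G4 WT; S-WT, WT cells of the *Smad4* line; S-KO, E-KO and T-KO, *Smad4*, *Eomes* and *T* KO; d, day. The dotted line marks an FPKM of 1, and open triangles mark values listed at 0. *Sox2* and *Nes* lay above 1 in all 14 conditions and *Pax3* in none, and *Sox1* lay above 1 in 7 conditions, each a KO column.

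Expression of the 10 genes in WT cells was first followed from the ES stage to day 3. The genes took separate courses. *Sox2*, *Pax6* and *Foxd3* were lower on day 3 than at the ES stage, *Sox3*, *Tal2* and *Nes* were higher, *Lrrn1* and *Slc35d3* were highest on day 1, and *Sox1* stayed below an FPKM of 1 throughout.

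*Sox2* was the most abundant of the 10 at the ES stage, at 256 FPKM, and stood at 104 on day 1, 21.5 on day 2 and 20.4 on day 3. The log2 ratio of day 3 to ES was −3.65 (95% counting interval −3.71 to −3.59), and nearly all of it lay between ES and day 2. *Foxd3* had 11.2, 8.94, 2.59 and 0.969 FPKM over the same stages, a log2 ratio of −3.53 (−3.81 to −3.26). *Foxd3* thus was lower at each stage than at the one before, and day 3 was below day 2 by more than counting error, while *Sox2* differed by −0.08 between these days. *Pax6* had 1.56, 0.481, 0.101 and 0.0469 FPKM, and its day 3 value rests on 9 to 11 fragments, depending on the transcript used.

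*Sox3* had 0.252 FPKM at the ES stage, then 1.37, 1.87 and 2.31. Its largest step was from ES to day 1, at a log2 ratio of 2.44 (1.80 to 3.15). *Nes* had 5.23, 11.7, 26.3 and 25.5 FPKM with a log2 ratio of −0.05 from day 2 to day 3. *Tal2* had 0.285, 0.914, 0.597 and 1.37 FPKM, and only its last value lay above 1. *Lrrn1*, at 0.151, 1.60, 1.02 and 0.524 FPKM, and *Slc35d3*, at 0.196, 1.80, 0.386 and 0.155 FPKM, both peaked on day 1. The ratio of day 1 to ES was 3.41 (2.82 to 4.06) on the log2 scale for *Lrrn1* and 3.20 (2.56 to 3.90) for *Slc35d3*. *Sox1* had 0.339, 0.220, 0.202 and 0.192 FPKM, and from day 1 to day 3 these values differed by less than counting error. *Pax3* was listed at 0 at ES and on day 3, which allows up to 0.0204 and 0.0168 FPKM, the worth of 3 fragments.

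Between ES and day 1, 7 of the 10 genes were examined, and 4 were higher past the fold (*Sox3*, *Lrrn1*, *Nes*, *Slc35d3*), where 7.7% of all examined genes were. *Sox2* and *Pax6* were lower past the fold, against 5.84% of all. Between days 1 and 2, *Nes* was higher (7.18% of all) and *Sox2*, *Foxd3* and *Slc35d3* lower (4.13%) among 6 examined. Between days 2 and 3, *Tal2* was higher (6.14%) and *Foxd3* lower (4.06%) among 6. From ES to day 3, *Sox3*, *Tal2* and *Nes* were higher (18.5%) and *Sox2*, *Pax6* and *Foxd3* lower (12.6%) among 6.

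To ask how these genes stand in Bmp4 when Smad4 is lost, *Smad4* KO cells were set against WT cells of the same line. All 10 genes had higher FPKM in *Smad4* KO cells on both days. On day 1, 4 of 9 examined genes were higher past the fold, where 2.36% of all examined genes were. On day 2 it was 8 of 9, where 2.56% of all were. None of the 10 was lower past the fold on either day, where 2.41% of all were on day 1 and 3.21% on day 2. The median log2 ratio over the 10 genes, with a pseudocount of 0.1, was 0.75 on day 1 and 1.96 on day 2, while the median over all 24538 genes was 0 on both days.

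**Figure D2:**
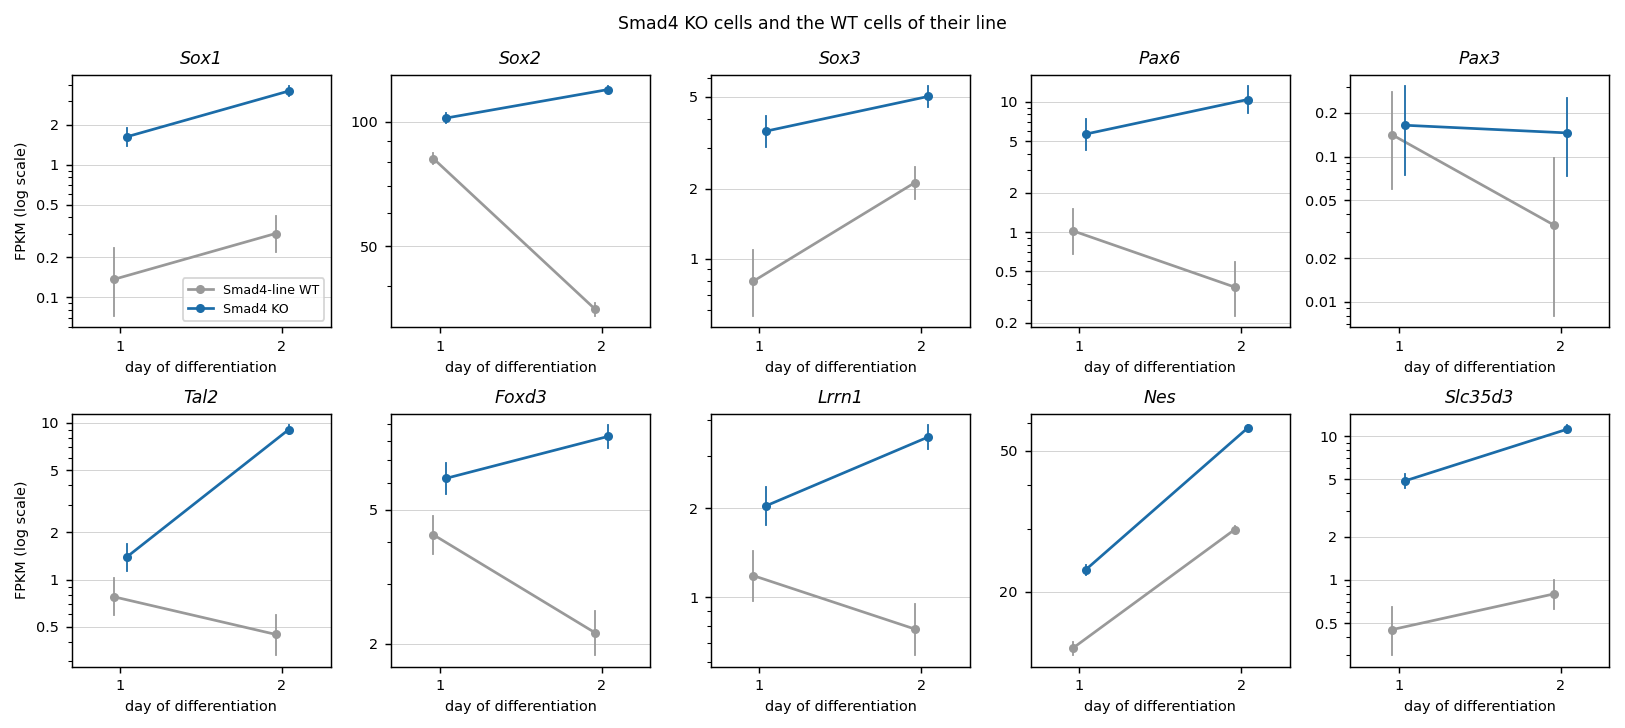
FPKM (log axes, each with its own range) of the 10 genes in *Smad4* KO cells (blue) and WT cells of their line (grey) on days 1 and 2, 1 point per library with its 95% counting interval. Intervals of *Pax6* and *Pax3* also span their transcript lengths. The KO point lies above the WT point in all 20 pairs, and the intervals are apart in each but *Pax3*, whose 4 intervals come from 4 to 19 fragments each.

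Among the SoxB1 genes, *Sox1* had 0.136 and 0.302 FPKM in WT cells on days 1 and 2 and 1.62 and 3.58 in *Smad4* KO cells. Its log2 ratios were 3.57 (2.75 to 4.51) and 3.56 (3.11 to 4.05). *Sox1* thus was further from WT than the other SoxB1 genes on both days. *Sox2* had 81.5 and 35.2 FPKM in WT cells and 102 and 120 in *Smad4* KO cells. WT cells had less *Sox2* on day 2 than on day 1, while *Smad4* KO cells did not, so the log2 ratio went from 0.33 (0.27 to 0.38) to 1.76 (1.71 to 1.82). *Sox3* had 0.799 and 2.13 FPKM in WT cells and 3.55 and 5.00 in *Smad4* KO cells, with log2 ratios of 2.15 (1.64 to 2.69) and 1.23 (0.96 to 1.51), smaller on day 2 as the WT level was higher.

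*Pax6* had the largest log2 ratio of the 10 on day 2. It stood at 1.02 and 0.378 FPKM in WT cells and at 5.65 and 10.4 in *Smad4* KO cells, log2 ratios of 2.47 (2.13 to 2.82) and 4.79 (4.36 to 5.24). *Pax3*, its relative, had 0.141 and 0.0336 FPKM in WT cells and 0.165 and 0.146 in *Smad4* KO cells. At 19 fragments or fewer per library, *Pax3* was not examined in any comparison.

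*Tal2* had 1.39 FPKM on day 1 and 9.06 on day 2 in *Smad4* KO cells, a log2 ratio of 2.67 (2.37 to 2.98), the largest between the days among the 10 genes on the log2 scale. WT cells had 0.777 and 0.447, so the log2 ratio was 0.84 (0.35 to 1.34) on day 1 and 4.34 (3.92 to 4.80) on day 2. *Slc35d3* was past the fold on both days, at 4.89 and 11.2 FPKM against 0.451 and 0.799 in WT cells, log2 ratios of 3.44 (2.88 to 4.05) and 3.81 (3.46 to 4.17). *Foxd3* had 4.21 and 2.15 FPKM in WT cells and 6.19 and 8.24 in *Smad4* KO cells, and *Lrrn1* had 1.18 and 0.779 in WT cells and 2.04 and 3.49 in *Smad4* KO cells. Both were under the fold on day 1, at 0.56 and 0.79, and past it on day 2, at 1.94 (1.70 to 2.18) and 2.16 (1.85 to 2.49). *Nes* went up in level from day 1 to day 2 in both genotypes, from 13.8 to 30.0 FPKM in WT cells and from 23.1 to 58.1 in *Smad4* KO cells, and its log2 ratios of 0.74 and 0.95 stayed under the fold.

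Against F1G4 WT cells instead of WT cells of their own line, the *Smad4* KO cells gave the same calls on day 2, except that *Nes* was also past the fold, at 1.17. On day 1 *Foxd3* then turned from 0.56 to −0.48, both under the fold, *Slc35d3* went from 3.44 to 1.50 and stayed past the fold, and *Nes* was past it at 1.04.

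*Eomes* KO, *T* KO and dKO cells were compared with F1G4 WT cells to ask how the 10 genes stand when either T-box factor, or both, is lost. These 3 comparisons share their WT samples on each day, so their ratios are not independent of each other. *Sox1* stood out in all 3 lines, with 7.17 and 5.75 FPKM in *Eomes* KO cells on days 2 and 3, 4.01 and 0.914 in *T* KO cells, and 5.17 and 6.49 in dKO cells, against 0.193 to 0.209 in WT cells. *Pax6* was above an FPKM of 1 in *Eomes* KO cells on day 2 and in dKO cells on both days, but not in *T* KO cells. *Nes* was under the fold throughout, and *Slc35d3* and *Pax3* never reached an FPKM of 1 in these lines.

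**Figure D3:**
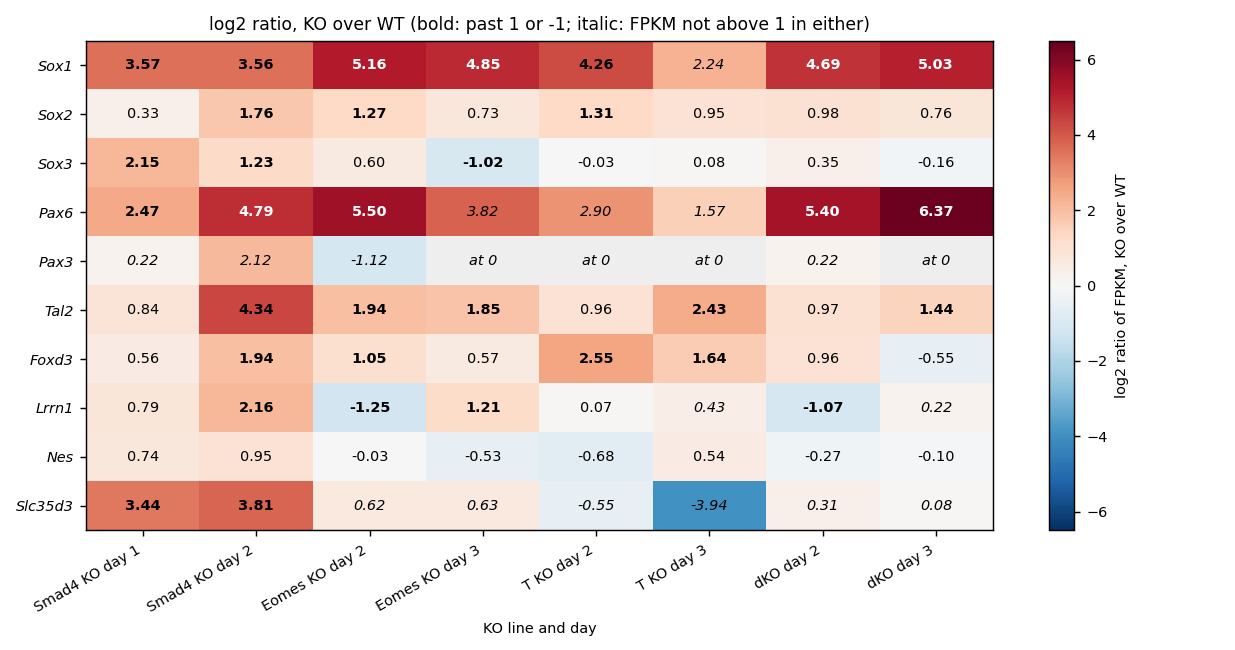
Log2 ratio of FPKM, KO over WT, for the 10 genes (rows) in the 8 comparisons (columns), in colour and as numbers. Bold numbers are past 1 or −1 at an FPKM above 1, italic numbers were not examined, and "at 0" marks a value of 0 in KO or WT. Numbers of *Sox1* run from 2.24 to 5.16 and those of *Nes* from −0.68 to 0.95.

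On day 2, *Eomes* KO cells had 5 of 8 examined genes higher past the fold (*Sox1*, *Sox2*, *Pax6*, *Tal2*, *Foxd3*), where 3.35% of all examined genes were, and 1 lower (*Lrrn1*), where 4.17% were. *T* KO cells had 3 of 7 higher (*Sox1*, *Sox2*, *Foxd3*), against 5.7% of all, and none lower, against 9.93%. The dKO cells had 2 of 8 higher (*Sox1*, *Pax6*), against 3.48%, and 1 lower (*Lrrn1*), against 4.5%. *Sox2*, *Tal2* and *Foxd3* lay just under the fold in dKO cells, at 0.98, 0.97 and 0.96, as did *Tal2* in *T* KO cells at 0.96. *Foxd3* lay just past it in *Eomes* KO cells, at 1.05, a call that was lost with a pseudocount of 1 and on the TPM scale.

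On day 3, *Eomes* KO cells had 3 of 7 higher (*Sox1*, *Tal2*, *Lrrn1*), where 7.39% of all examined genes were, and 1 lower (*Sox3*), where 9.01% were. *T* KO cells had 2 of 5 higher (*Tal2*, *Foxd3*), against 2.12% of all, and none lower, against 3.92%. The dKO cells had 3 of 7 higher (*Sox1*, *Pax6*, *Tal2*), against 5.51%, and none lower, against 5.53%. The median log2 ratio over the 10 genes, with a pseudocount of 0.1, lay between 0.46 and 0.80 in the 6 comparisons, while that over all genes was 0 in each.

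The log2 ratio of *Sox1* was 5.16 (4.71 to 5.65) on day 2 and 4.85 (4.39 to 5.35) on day 3 in *Eomes* KO cells, and 4.69 (4.23 to 5.19) and 5.03 (4.57 to 5.53) in dKO cells. On the scale of the time course, *Eomes* KO cells on day 2 (7.24 FPKM), dKO cells on day 3 (6.24), *Eomes* KO cells on day 3 (5.51) and dKO cells on day 2 (5.23) held the 4 highest *Sox1* levels of the 14 conditions, and neighbours in that order had overlapping counting intervals. *T* KO cells on day 2 (3.89) and *Smad4* KO cells on day 2 (3.58, on their own scale) came next and overlapped with each other. In *T* KO cells the log2 ratio was 4.26 (3.79 to 4.77) on day 2. On day 3 it was 2.24 (1.73 to 2.78), with an FPKM under 1. In *T* KO cells *Sox1* was lower on day 3 than on day 2 by a log2 ratio of −2.12 (−2.42 to −1.82), whereas in dKO cells the ratio of the days was 0.32 (0.14 to 0.49). In all 6 columns *Sox1* lay above the 6 WT conditions of both cell lines, the highest of which was 0.339 FPKM. *Sox1* lies on chromosome 8, whose genes had a median log2 ratio of 0.17 to 0.23 in these 6 comparisons, compared with −0.16 to 0.02 for the chromosomes of the other 9 genes and with −0.02 to 0.00 for chromosome 8 in the *Smad4* KO comparisons. With the chromosome's own median removed, all *Sox1* calls were kept.

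*Pax6* showed the largest differences among the KO lines. In *Eomes* KO cells it had 4.54 FPKM on day 2 and 0.691 on day 3, in *T* KO cells 0.784 and 0.141, and in dKO cells 4.23 and 4.03. WT cells had 0.0473 to 0.105 FPKM on these days, so the log2 ratios were 5.50 (4.82 to 6.26) in *Eomes* KO cells on day 2, and 5.40 (4.72 to 6.17) and 6.37 (5.42 to 7.51) in dKO cells. *Pax6* in dKO cells did not differ from *Eomes* KO cells beyond counting error on day 2, at a log2 ratio of −0.12 (−0.32 to 0.08), and was higher on day 3, at 2.53 (2.12 to 2.96). The difference came with the day in *Eomes* KO cells, whose *Pax6* was lower on day 3 than on day 2 by −2.74 (−3.16 to −2.35). Compared with *T* KO cells, dKO cells were higher by 2.47 (2.03 to 2.93) on day 2 and by 4.82 (4.13 to 5.59) on day 3. *Pax6os1*, annotated on the other strand, was listed at 0 in every condition, and *Elp4*, which overlaps *Pax6* on the other strand, had 2.97 to 4.90 FPKM. The libraries keep the strand of the RNA, but the study's methods name no strand setting for alignment or FPKM. Whether *Elp4* fragments entered the *Pax6* values was not tested.

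**Figure D4:**
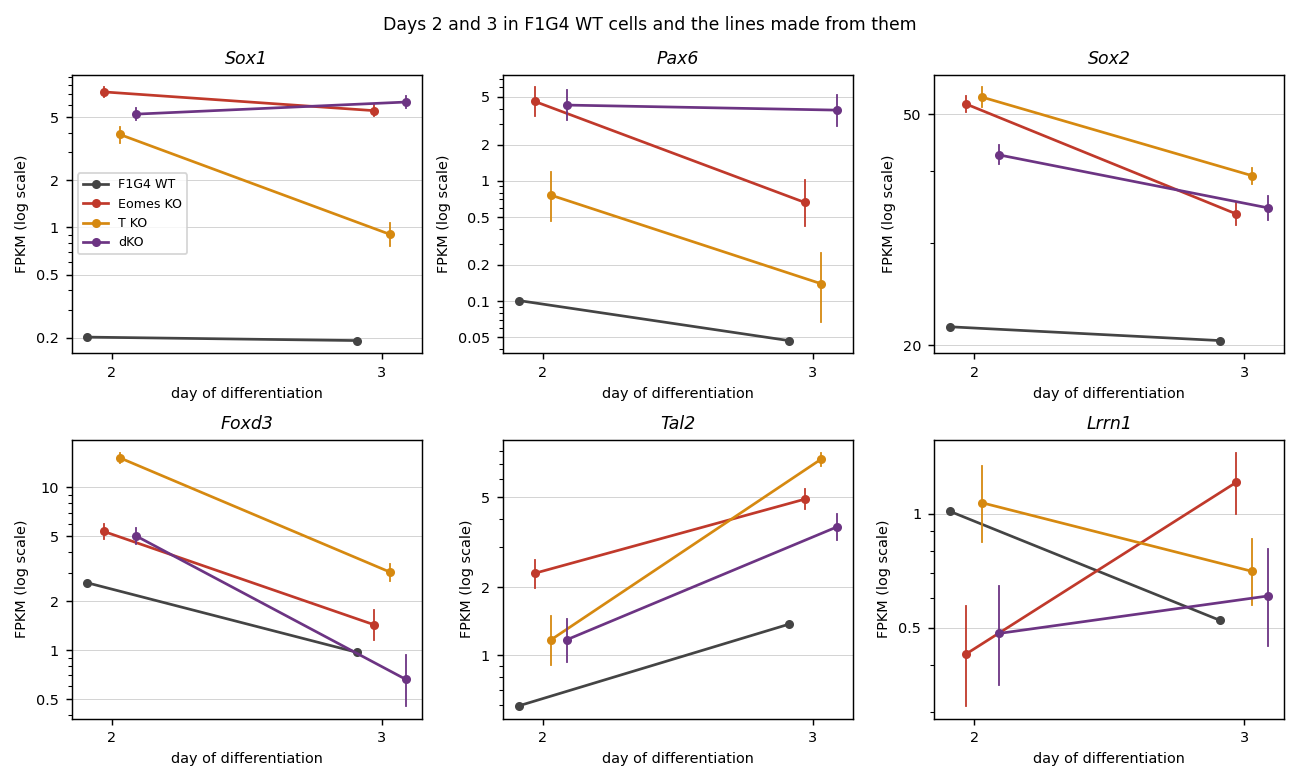
FPKM (log axes, each with its own range) of 6 of the genes on days 2 and 3 in F1G4 WT (black), *Eomes* KO (red), *T* KO (orange) and dKO (violet) cells, scaled to the time-course table. Bars are 95% counting intervals of the single KO libraries, and WT points hold 2 samples and carry no bar. Those of *Pax6* also span its transcript lengths. *Sox1* and *Pax6* on day 3 stay near their day 2 level in dKO cells and not in *T* KO cells, and the *Lrrn1* lines of *Eomes* KO and WT cells cross.

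*Sox2* was above WT in all 6 comparisons. It had 51.6 and 35.2 FPKM in *Eomes* KO cells on days 2 and 3, 55.2 and 39.5 in *T* KO cells and 42.1 and 35.8 in dKO cells, against 20.5 to 22.2 in WT cells. The log2 ratios ran from 0.73 (*Eomes* KO, day 3) to 1.31 (*T* KO, day 2). With WT cells of the *Smad4* line as control, those of *Eomes* KO and *T* KO cells on day 2 were 0.56 and 0.60, under the fold. *Sox3* in these lines lay between 1.19 and 2.82 FPKM, against 1.86 to 2.41 in WT cells. Its only call, a log2 ratio of −1.02 (−1.45 to −0.61) in *Eomes* KO cells on day 3, was lost under 5 of 6 alternatives.

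Among these lines *Foxd3* was highest in *T* KO cells on day 2, at 15.7 FPKM against 2.68 in WT cells, a log2 ratio of 2.55 (2.35 to 2.75). On day 3 *T* KO cells had 3.05 against 0.977, a ratio of 1.64 (1.33 to 1.96). *Eomes* KO cells had 5.33 and 1.50, and dKO cells 4.99 and 0.687. *Foxd3* was lower on day 3 than on day 2 in all 4 lines, WT included, with log2 ratios of −1.43 in WT, −1.85 in *Eomes* KO, −2.35 in *T* KO and −2.87 in dKO cells. The dKO cells had less *Foxd3* than *T* KO cells by −1.62 (−1.82 to −1.42) on day 2 and −2.17 (−2.74 to −1.65) on day 3.

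*Tal2* went the other way between the days and was higher on day 3 than on day 2 in all 4 lines, with log2 ratios of 1.19 in WT, 1.14 in *Eomes* KO, 2.64 in *T* KO and 1.72 in dKO cells. On day 3 it had 5.12 FPKM in *Eomes* KO, 7.43 in *T* KO and 3.84 in dKO cells against 1.38 to 1.42 in WT cells, log2 ratios of 1.85, 2.43 (2.21 to 2.65) and 1.44 (1.17 to 1.71). The level in dKO cells lay below those of both single KO lines on day 3, by −0.43 (−0.67 to −0.19) and −0.97 (−1.19 to −0.76). On day 2 it had 2.28 FPKM in *Eomes* KO cells against 0.594 in WT cells, a ratio of 1.94 (1.57 to 2.32), and 1.21 and 1.16 in *T* KO and dKO cells.

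*Lrrn1* in *Eomes* KO cells was below WT on day 2, at 0.423 against 1.01 FPKM, and above it on day 3, at 1.26 against 0.547. The log2 ratios were −1.25 (−1.75 to −0.78) and 1.21 (0.82 to 1.61). In dKO cells the ratio was −1.07 (−1.57 to −0.60) on day 2 and 0.22 (−0.31 to 0.72) on day 3, and in *T* KO cells 0.07 and 0.43. The calls on day 2 were lost with WT cells of the *Smad4* line as control, and all 3 were lost with a pseudocount of 1. *Nes* ran from 16.9 FPKM (*T* KO, day 2) to 37.3 (*T* KO, day 3) in these lines against 25.7 to 27.1 in WT cells, log2 ratios of −0.68 and 0.54 that exceed counting error and lie under the fold. *Slc35d3* had 0.591 FPKM or less in all 6 columns, and in *T* KO cells on day 3 rested on 1 fragment. *Pax3* had at most 0.117 FPKM, in dKO cells on day 3, from 8 to 9 fragments.

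The order of levels over the 14 conditions, on the scale of the time course, differed among the genes. Columns of the *Smad4* line kept their own scale. Level intervals of *Pax6* and of F1G4 WT columns are wider than counting error, so an overlap there can hide a difference beyond it. *Smad4* KO cells on day 2 held the highest level of *Sox3*, *Pax6*, *Tal2*, *Lrrn1*, *Nes* and *Slc35d3*, in each case apart from the next condition beyond the counting intervals. *Pax6* stood at 10.4 FPKM there, followed by *Smad4* KO cells on day 1 (5.65), *Eomes* KO cells on day 2 (4.58) and dKO cells on days 2 (4.27) and 3 (3.88), whose intervals overlapped between neighbours, and then by WT cells at ES (1.56). *Tal2* went from 9.06 FPKM to 7.36 in *T* KO cells on day 3, 4.90 in *Eomes* KO cells on day 3, 3.70 in dKO cells on day 3 and then the level of *Eomes* KO cells on day 2, each step larger than the intervals, while the other 9 conditions overlapped as neighbours. *Sox2* and *Foxd3* had WT cells at or near the top. For *Sox2* the ES stage (256 FPKM) led *Smad4* KO cells on day 2 (120) and F1G4 WT (104) and *Smad4* KO cells (102) on day 1, which did not differ beyond their intervals. For *Foxd3* the first 4 conditions, *T* KO cells on day 2 (15.2), WT cells at ES (11.2) and on day 1 (8.94) and *Smad4* KO cells on day 2 (8.24), overlapped as neighbours. Its log2 ratio of WT day 1 to ES was still −0.32 (−0.44 to −0.20), beyond counting error. *Nes*, *Sox3* and *Lrrn1* had their lowest level at the ES stage, apart from the next condition in each case.

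The WT cells of both lines were then set side by side, scaled to a median log2 ratio of 0, as a measure of how far a gene differs between cells that had lost none of the 3 genes, of which those of the *Smad4* line carry floxed *Smad4* alleles. On day 1, 3 of the 10 genes differed past the fold, *Pax6* (1.14 higher in the *Smad4* line), *Foxd3* (−1.03) and *Slc35d3* (−1.94), where 11.1% of all examined genes differed in either direction. On day 2 none of the 10 was called, where 5.08% of all were, though *Pax6*, at 0.101 and 0.378 FPKM, and *Slc35d3*, at 0.386 and 0.799, lay 1.91 and 1.06 apart below the FPKM minimum. *Sox2* was 0.72 higher in the *Smad4* line on day 2, beside KO ratios of 1.27 and 1.31 in *Eomes* KO and *T* KO cells on that day. *Sox1* lay 0.59 apart on day 2, and its smallest KO ratio on that day was 3.56.

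**Figure D5:**
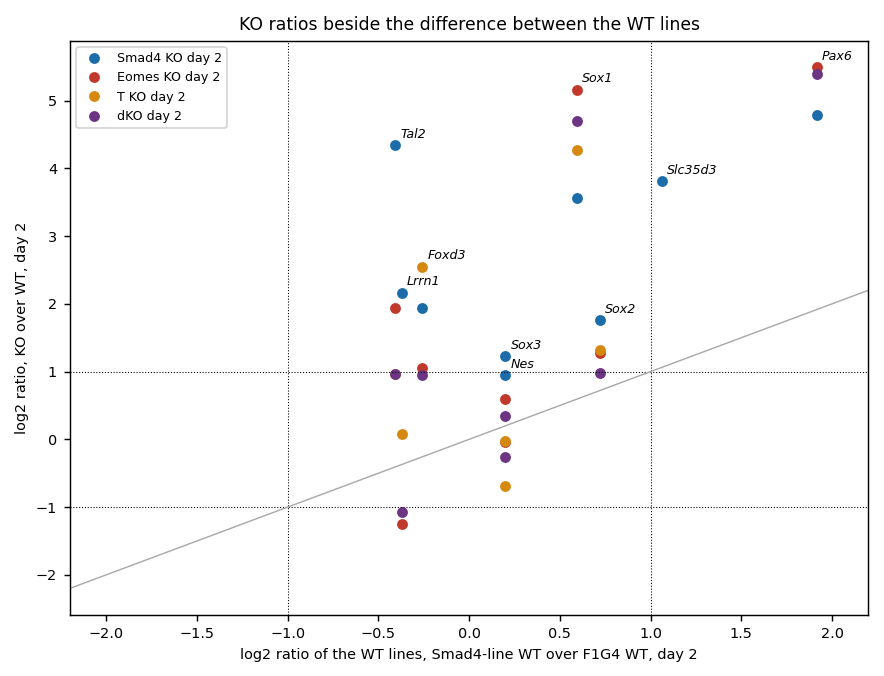
Log2 ratio of KO over WT on day 2 (vertical) against the log2 ratio of WT cells of the *Smad4* line over F1G4 WT cells on day 2 (horizontal), 1 point per gene and KO line at an FPKM above 1. Dotted lines mark 1 and −1, and points on the grey diagonal have a KO ratio equal to the difference between the WT lines. *Sox1* lies at 0.59 on the horizontal axis and between 3.56 and 5.16 on the vertical, and *Sox2* at 0.72 and between 0.98 and 1.76.

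Other genes of the neural path were followed through lists, whose medians are log2 ratios over all listed genes with a pseudocount of 0.1, beside a median over all genes of 0 in every comparison. On day 1, 2.36% of all examined genes were higher and 2.41% lower in *Smad4* KO cells. On day 2 these shares were 2.56% and 3.21% in *Smad4* KO, 3.35% and 4.17% in *Eomes* KO, 5.7% and 9.93% in *T* KO, and 3.48% and 4.5% in dKO cells. With those of day 3 below, they are the background of all list counts. Of 30 neural plate and neural progenitor genes, 9 were examined in *Smad4* KO cells on day 1, with 6 higher past the fold (*Gbx2*, *Pou3f1*, *Fabp7*, *Cdh2*, *Ncam1*, *Msi1*) and 1 lower (*Nkx6-2*), and 8 on day 2, with 4 higher (*Otx2*, *Fabp7*, *Cdh2*, *Zfp521*) and none lower. The median over all 30 was 0.06 on day 1 and 0.55 on day 2, and −0.10 to 0.35 in the other lines. In the 3 lines with T-box factors removed, 2 were higher in each on day 2, *Gbx2* among them in all 3 (4.02, 4.52 and 2.99 FPKM against 0.438 to 0.458 in WT cells), with *En2* in *Eomes* KO and dKO cells and *Msi1* in *T* KO cells, and *Pou3f1* was lower in dKO cells. On day 3, 10 were examined in each line, with 1, 0 and 0 higher, against 7.39%, 2.12% and 5.51% of all examined genes, and 3, 2 and 2 lower, against 9.01%, 3.92% and 5.53%. *Fabp7*, a fatty acid binding protein of radial glia, and *Cdh2*, or N-cadherin, were lower in all 3 lines on day 3 and higher in *Smad4* KO cells on both days. Their WT levels on day 3 were 9.62 to 9.96 and 5.61 to 5.81 FPKM. Both genes are also expressed outside the neural lineage, and N-cadherin is made by nascent mesoderm.

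Of 11 neuronal differentiation genes, 9 and 8 were examined in *Smad4* KO cells on days 1 and 2, and 4 to 7 in the other KO columns. Medians ran from −0.35 (*T* KO, day 2) to 0.77 (*Smad4* KO, day 2). *Elavl4* and *Neurod1* were higher on both days in *Smad4* KO cells, together with *Snap25* on day 1 and *Elavl3* on day 2. *Snap25* was also higher in *T* KO and dKO cells on day 2 and in *Eomes* KO cells on day 3, and *Tubb3* in dKO cells on day 3. *Nefl*, a neurofilament subunit, was lower in all 8 comparisons, for example at 21.9 against 193 FPKM in *Smad4* KO cells on day 2, and *Nefm* was lower in *Smad4* KO and *T* KO cells on day 2. Of 11 neural border and neural crest genes, 3 were examined in each KO column except *Eomes* KO cells on day 3, where 6 were. *Msx1* and *Msx2*, which respond to BMP, were lower in *Smad4* KO cells on both days. The medians of the list there were −0.11 and −0.60, and 0.00 to 0.69 in the other 3 lines. *Msx2* was higher in *Eomes* KO, in *T* KO and in dKO cells on day 2 (9.77 to 10.5 against 3.23 to 3.37 FPKM), as was *Msx1* in *T* KO cells, and *Msx1* was lower in all 3 lines on day 3. *Snai2* and *Tfap2a* were higher in *Eomes* KO cells on day 3, at 5.89 and 1.50 FPKM, and *Ets1* was lower in *T* KO cells on day 3.

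Of 8 SoxB1 partner and repressor genes, 7 or 8 were examined in each KO column, with medians from −0.51 (*Smad4* KO, day 2) to 0.54 (*Eomes* KO, day 2). *Id1*, *Id2* and *Id3*, inhibitors of basic helix-loop-helix factors, were the 3 lower ones in *Smad4* KO cells on both days. *Id3* was higher on day 2 in *Eomes* KO and dKO cells and on day 3 in *T* KO cells. *Id1* and *Zeb2* were also higher in *Eomes* KO cells on day 2, and in *T* KO cells *Id1* was lower on day 2, and *Zeb2* was higher on day 2 and lower on day 3. Of 10 BMP and Nodal antagonists, 5 of 6 and 4 of 6 examined genes were lower in *Smad4* KO cells on days 1 and 2, including *Fst*, *Lefty1*, *Lefty2* and *Smad7*. The medians there were −1.06 and −1.15. The medians in the other lines were −0.39 to 0.73. *Lefty1* was higher in *Eomes* KO and dKO cells on day 2 and in *T* KO and dKO cells on day 3. In *Eomes* KO cells on day 3 *Lefty1* was lower, as was *Lefty2* there and in *T* KO cells. *Nog* was lower in *T* KO and higher in dKO cells on day 3, where *Bambi* was higher too. On day 2 *Fst* was lower in *Eomes* KO cells. By day 3 *Fst* was lower in all 3 lines, at 2.35, 3.80 and 8.27 FPKM in *Eomes* KO, in *T* KO and in dKO cells against 175 to 181 in WT cells.

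Genes of other lineages moved in the same columns, and their part in the results above was not tested. In these bulk samples, fewer cells of a type and less RNA per cell cannot be told apart. Of 11 nascent mesoderm genes, 5 of 5 and 8 of 8 examined genes were lower in *Smad4* KO cells on days 1 and 2, and their summed level was 4.17 and 4.66 FPKM against 21.3 and 132 in WT cells. The medians there were −1.498 and −3.76. On day 2, 4, 3 and 5 of 8 were lower in *Eomes* KO, in *T* KO and in dKO cells, and *Eomes* and *Evx1* were higher in *T* KO cells. On day 3, 9, 8 and 8 of 10 were lower in *Eomes* KO, in *T* KO and in dKO cells, with sums of 92.9, 84.5 and 94.1 against 514 to 532 in WT cells, and the medians were −4.82, −2.01 and −3.11. The list holds *Eomes* and *T* themselves. Of 12 naive and core pluripotency genes, 4 of 11 and 8 of 10 examined genes were lower and none higher in *Smad4* KO cells on days 1 and 2, including *Nanog* and *Tdgf1* on both days. *Sox2* was at a log2 ratio of 0.33 on day 1, under the fold, and past it on day 2, where *Esrrb* and *Zfp42* were lower. The medians were −0.74 and −1.53. In the F1G4-derived lines at most 2 of the 12 passed the fold in any column, with medians of −0.51 to 0.24. The 11 formative epiblast genes share *Otx2*, *Pou3f1* and *Cdh2* with the neural plate list. Of the 11, 4 and 2 were higher and none lower in *Smad4* KO cells on days 1 and 2. These were *Fgf5* (17.9 against 3.40 FPKM), *Lef1*, *Pou3f1* and *Cdh2* on day 1 and *Otx2* and *Cdh2* on day 2. All but *Fgf5* and *Lef1* had thus been counted above. The medians of the formative list were 0.60 and 0.68. Of the same list, all 11 of which were examined, 5, 2 and 4 were lower in *Eomes* KO, in *T* KO and in dKO cells on day 3, against 9.01%, 3.92% and 5.53% of all examined genes, and *Utf1* was higher in *T* KO and dKO cells. On day 2, *Lef1* and *Tcf15* were higher in *Eomes* KO cells, *Etv4* and *Lef1* in *T* KO cells and *Tcf15* in dKO cells, while *Fgf5* was lower in each line and *Pou3f1* in dKO cells.

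Of 10 surface ectoderm genes, 6 to 8 were examined in each KO comparison, and at most 3 passed the fold in any. *Krt14* was higher in *Eomes* KO and dKO cells on day 3, as was *Trp63* in *Eomes* KO cells. *Tfap2c* was lower in *Smad4* KO cells on both days, *Krt14* and *Grhl3* in *Smad4* KO and *Eomes* KO cells on day 2, and *Grhl3* in dKO cells on day 2, with medians of −0.63 to 0.45. Their summed level was 305 to 1731 FPKM in the 6 WT conditions and 532 to 2332 in the 8 KO columns, with 4 to 8 of the 10 above an FPKM of 1. The sum includes *Krt8* and *Krt18*, which were higher past the fold at each step of the F1G4 WT course. Of 8 trophoblast genes, 4 of 5 and 3 of 3 examined genes were lower in *Smad4* KO cells on days 1 and 2, at medians of −0.98 and −1.78. *Tfap2c*, which is also in the surface ectoderm list, was among them on both days. *Cdx2*, which is also a gene of posterior mesoderm, was higher in the other 3 lines on day 2 and lower on day 3. The trophoblast genes summed to 7.26 to 65.3 FPKM in the WT conditions and 4.76 to 125 in the KO columns. Of 6 definitive endoderm genes only *Foxa2* reached an FPKM of 1, and the 6 summed to 0.581 to 6.61 FPKM in the 14 conditions, with medians of −1.33 to 0.76. *Foxa2* was higher in *T* KO cells on day 2, and lower in *Eomes* KO and dKO cells on day 3. Of 9 feeder fibroblast genes the sum was 0.664 to 5.02 FPKM in WT and 2.42 to 10.3 in KO columns, with medians of −0.33 to 0.71. Past the fold were *Dcn* in *Smad4* KO cells on day 2, at 2.02 FPKM and listed at 0 in WT cells, and *Postn* in *Eomes* KO cells on day 3, at 1.46 against 0.496.

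The pattern of each gene over the 14 conditions was compared with the others by Pearson's r of log2(FPKM + 0.1), given as a description, since the conditions share lines, days and libraries. Among the 10, the highest values were 0.90 for *Sox3* and *Nes*, 0.74 for *Sox2* and *Foxd3*, 0.72 for *Lrrn1* and *Slc35d3* and 0.66 for *Sox1* and *Pax6*. *Sox1* and *Sox2* had −0.06, and *Sox2* and *Nes* −0.49, the lowest. Among 9250 genes that reach an FPKM of 5 or more, those most like *Sox1* were *Skida1* (0.93), *0610010F05Rik* (0.90) and *Myl3* (0.85), those most like *Sox2* were *Stat4* (0.94), *Cdk17* (0.93) and *Zbtb8a* (0.92), and those most like *Pax6* were *Rimklb* (0.89), *Asf1a* (0.87) and *Dcaf12l1* (0.85). *Tal2* was most like *Bphl* (0.88), *B4galt4* (0.80) and *Myl3* (0.79), *Foxd3* most like *Ttf2* (0.91), *Zfp850* (0.87) and *Adam23* (0.87), and *Sox3* most like *Klhl23* (0.92), *Nes* and *Dusp3* (0.88). *Nes* was most like *Sox3*, *Lpar6* (0.90) and *Fv1* (0.90), *Slc35d3* like *Zfp266* (0.95) and *Mfap3l* (0.90), and *Lrrn1*, over 9251 genes, most like *Tubb4a* (0.92), *Acsl4* (0.90) and *Snhg14* (0.89). For *Pax3*, whose values rest on few fragments, they were *Selenom* (0.94), *Scrn1* (0.88) and *Ndn* (0.88).

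*Sox1ot* and *Sox2ot*, long noncoding RNA genes on the same strand that overlap *Sox1* and *Sox2*, had 0 to 0.228 and 0.0058 to 0.671 FPKM. Fragments in the overlap could be assigned to either gene. The highest of these values is under those of *Sox2* in every condition. *Sox1ot* had at most 0.0176 FPKM in WT cells, and 0.00527 (*T* KO, day 3) to 0.228 (*Smad4* KO, day 2) in KO columns. *Sox1* stood at 3.58 FPKM in *Smad4* KO cells on day 2.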

How the data were processed

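Expression was measured by strand-specific total RNA-seq (ScriptSeq) in 18 samples. Per the study's methods, quality control was by FastQC, adapter trimming by cutadapt 2.9 and alignment to mm10 (GRCm38) by HISAT2 2.1.0, and the authors then used SAMtools 1.9 and, for FPKM on RefSeq genes, Cuffdiff 2.2.1. The deposited tables hold FPKM normalised by the authors, with 1 value per gene and condition, and replicates pooled.

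Columns were assigned to groups from the sample labels. From the FPKM, log2 ratios were computed without a pseudocount, and genes above 1 FPKM in either condition were called past a log2 ratio of 1 or −1. With no replicate values, no test was possible. Named genes were the 10 genes, the list genes that passed the fold and the 3 most alike genes, of which 1 is not reported here. The members and lists were chosen with earlier results of these data known. *Eomes* KO, *T* KO and dKO columns were brought to the time course through their shared WT column. Columns of the *Smad4* line share no WT column with the time course and were left on their own scale. WT columns of the KO tables equalled those of the time course times 0.989 to 1.045.

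Fragments were recovered from the spacing of FPKM times transcript length on 12410 genes with 1 transcript, where a value within 0.1 of a whole number counted as whole. The recovered depth was 8.61 M to 18.9 M fragments (M, mega) in single libraries and 25.2 M to 32.6 M in WT columns that pool 2, and level intervals of the latter also span the unknown split of fragments between both samples. The rule was tested on simulated data for these 12410 genes, where 200 of 200 changed genes and 1 of 5205 unchanged genes were called. The simulation held counting error only, and all its changes lay beyond the fold in genes above the FPKM minimum. It therefore says nothing of calls near the fold or of spread between cultures and clones. Alternatives were other pseudocounts, FPKM minimums, fold thresholds and scalings, and the other WT line as control. Computation used pandas 2.3.3, numpy 2.4.6 and scipy 1.17.1 under Python 3.11.15, and plots were drawn with matplotlib 3.10.9. The ChIP-seq and ATAC-seq samples of the series were not used here.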

Additional observations from a re-analysis of the deposited data

Results flagged for a closer look

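*Lrrn1* differed in direction between the days in *Eomes* KO cells. Its log2 ratio to WT was −1.25 on day 2 and 1.21 on day 3, each from 1 KO library and past the fold. The difference between the days was not tested, since each day has 1 KO library, and both calls were lost with a pseudocount of 1.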

How the results depend on the processing

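No paired analysis was possible because the tables carry 1 pooled value per condition, and for the same reason no replicate could be left out. Of 569 ratios of the 10 genes under the alternatives, 452 stayed within the counting interval, 117 moved beyond it, none reversed among called values, and 32 calls were lost or gained. Rescaling to TPM shifted all genes by −0.41 (dKO, day 2) to 0.28 (*Eomes* KO, day 3) on the log2 scale. The numbers of members past the fold moved by over 1.5 times as follows, and why was not tested beyond the construction of each alternative.

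With an FPKM minimum of 5, fewer genes are examined, and the number past the fold was 2 rather than 6 from ES to day 1, 0 rather than 2 from day 2 to day 3, 3 rather than 6 from ES to day 3, 1 rather than 4 in *Smad4* KO cells on day 1, 3 rather than 6 and 2 rather than 4 in *Eomes* KO cells on days 2 and 3, 1 rather than 2 in *T* KO cells on day 3, 1 rather than 3 in dKO cells on both days, and 1 rather than 3 between the WT lines on day 1. With a log2 threshold of 2 it was 3 from ES to day 1, 2 rather than 4 from day 1 to day 2, 0 from day 2 to day 3, 5 rather than 8 in *Smad4* KO cells on day 2, 2 and 1 in *Eomes* KO cells on days 2 and 3, 1 in *T* KO cells on day 3 and 0 between the WT lines on day 1. With a pseudocount of 1 it was 0 from day 2 to day 3, 2 in *Eomes* KO cells on day 3 and 0 between the WT lines on day 1. Without an FPKM minimum it was 4 from day 2 to day 3, 5 in *T* KO cells on day 3 and 2 rather than 0 between the WT lines on day 2. On the TPM scale it was 5 rather than 3 in *T* KO cells on day 2 and 1 between the WT lines on day 2. Requiring the whole counting interval past the fold left 1 from day 2 to day 3 and 2 in *Eomes* KO cells on day 3. This last alternative and the removal of the median of genes of like GC content were chosen after seeing the data.

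With WT cells of the other line as control, 9 calls changed, among them *Sox2* in *Eomes* KO and *T* KO cells on day 2. Each condition of the KO lines is a single library, so culture and clone differences cannot be told apart from genotype.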
